A study of Mus musculus with 17 samples.

Results

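Imprinted genes were described here across early liver tumour cells, normal liver cells and Kupffer cells of the mouse. Members were 42 named imprinted genes of 17 clusters, chosen with earlier results of these data known. Each was looked up by symbol in every count table, whatever its values there. Of these, 35 had a row in at least 1 table, among 19188 genes with a row in any. There were 28 in the tables of early tumour and normal liver cells, 34 in the Kupffer cell table and 27 in all tables. The 6 long non-coding members H19, Airn, Kcnq1ot1, Meg3, Rian and Mirg, and the protein-coding gene Magel2, had no row and were not analysed here.

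An imprinted gene is transcribed mainly from the copy inherited from the mother or mainly from the copy inherited from the father, according to DNA methylation set in the germ line at the control region of its cluster. In the embryo and placenta, many genes read from the paternal copy promote growth and many read from the maternal copy restrain it. In the liver, several are high before birth, fall after it and can return in tumours. Of the members, 21 are known mainly as paternally and 21 as maternally expressed, some in placenta or brain only. The counts do not tell the 2 alleles apart, so levels are described here and imprinting itself was not measured.

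RNA was selected by its poly(A) tail and sequenced in 17 libraries. Early hepatocellular carcinoma (HCC) cells came from mice induced with DEN, the usual abbreviation of the liver carcinogen diethylnitrosamine, and gave 3 libraries with Mef2d knocked out (KO) and 3 with wild-type Mef2d (WT). The product of Mef2d belongs to the MEF2 transcription factors. There were 3 libraries of normal liver cells, and 4 labelled KC2 and 4 labelled KC1 of Kupffer cells, macrophages that reside in the liver. All Kupffer cells came from DEN-induced mice, from a source the labels abbreviate as PME without spelling it out. The name deposited with the KO and WT counts includes H22_C1C17_AML_sh_vs_ctrl, which the labels do not explain. How Mef2d was removed and in which cells, the strain, sex and age of the mice, and what separates KC2 from KC1 are not stated in the labels. Nor do these say whether replicates were separate animals or cultures. The p-values therefore cover only the spread between libraries, which may be technical.

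Libraries held 15353249 to 18637765 expected counts, and 3 counts in a library, taken as the detection floor, corresponded to 0.149 to 0.209 CPM, a gene's share of its library on the usual count scale. Mef2d itself averaged 66.1 ± 2.66 CPM in KO and 99.8 ± 3.10 CPM in WT early HCC cells (SD, n = 3 each), 1.52-fold lower (adjusted p = 7.17e-09), so its transcript was still detected in the KO libraries. The defining hepatocyte marker Alb was at or under 0.391 CPM in each early HCC library and between 2.13 and 2.66 CPM in normal liver libraries. Summed over 7 hepatocyte markers with a row, the level was 1.10 to 1.57 CPM in KO, 0.614 to 0.842 CPM in WT and 118 to 128 CPM in normal liver libraries, where Hnf4a made up nearly all of it. Summed over 6 bile duct markers, the level was 1750 to 1810 CPM in KO, 1320 to 1420 CPM in WT and 1690 to 1730 CPM in normal liver libraries. Single markers of that list differed both ways, with Krt7 at 0.359 CPM in WT and 411 CPM in normal liver libraries, and Spp1 at 1330 CPM in WT and 164 CPM in normal liver libraries. Kupffer cell markers and endothelial markers each summed to under 4 CPM in all 9 of these libraries.

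The first comparison set Mef2d KO early HCC cells against WT ones, a contrast that the series design names. The growth factor gene Igf2, its receptor Igf2r and the growth-signal adaptor Grb10 were lower in KO cells, and the growth restrainer Phlda2, Ampd3 and Cd81 were higher. With edgeR's quasi-likelihood test and an adjusted p under 0.05, 10 of 15 tested members were called, 5 higher and 5 lower, while 13 others with a row were too low to test. Over all 12093 genes tested, 64.5% were called (32.3% higher and 32.2% lower), so the share of members is near the background. With at least a 2-fold difference, 6 members, 3 higher and 3 lower, were called, against 7.66% of all genes tested (3.62% higher and 4.04% lower). The members were chosen with earlier results known, and whether their share differs from the background was not tested. The median log2 fold change was 0.02 over the tested members and -0.003 over all genes, and the median absolute value was 0.40 against 0.277.

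Igf2, the paternally expressed fetal growth factor (chr7:142650768-142666816, GRCm38), had 11.1, 10.7 and 9.77 CPM in KO libraries, against 39.9, 40.7 and 41.4 CPM in WT libraries. No KO library reached a WT library, and Igf2 fell 3.89-fold in KO cells (log2 fold change -1.96 ± 0.07 SE, adjusted p = 1.46e-12). In bulk RNA, fewer cells that express a gene and less of its RNA per cell cannot be told apart. Genes on chromosome 7 as a whole were shifted upward, with a median log2 fold change of 0.241 over 930 tested genes and 67.7% of them above 0. Relative to that median, the log2 fold change was -2.20 for Igf2 and 1.63, 0.93 and 0.92 for Phlda2, Ampd3 and Cd81, which lie on the same chromosome and are described below, so the last pair were then under 2-fold. The part of the chromosome's shift in these results was not tested.

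Igf2r (chr17:12682406-12769706), maternally expressed in mice, encodes the receptor that takes IGF2 to lysosomes for breakdown. It had 4.77, 5.63 and 5.88 CPM in KO libraries, against 10.3, 11.1 and 12.4 CPM in WT libraries. Every KO library lay below every WT library, a fall of 2.08-fold (log2 fold change -1.06 ± 0.11, adjusted p = 5.26e-07). Grb10 (chr11:11930499-12037428) encodes an adaptor that binds the insulin and IGF receptors and dampens their signal. It was near the floor in KO libraries, at 0.115, 0.115 and 0.0565 CPM, against 1.36, 1.28 and 1.17 CPM in WT libraries. From 5 counts in KO against 67 in WT cells, the fitted fall was 12.5-fold (log2 fold change -3.65 ± 0.43, adjusted p = 2.26e-06).

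Phlda2 (chr7:143501545-143503145), whose product limits growth of the placenta, had 4.77, 6.37 and 6.22 CPM in KO libraries, against 1.59, 1.51 and 1.62 CPM in WT libraries. This was a rise of 3.65-fold (log2 fold change 1.87 ± 0.17, adjusted p = 1.08e-07), and the KO libraries spread more widely than the WT ones. Cdkn1c, a cyclin-dependent kinase inhibitor from the same cluster, averaged 2.19 ± 0.524 CPM in KO and 1.93 ± 0.307 CPM in WT libraries and was not called (adjusted p = 0.504).

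Ampd3 (chr7:110767790-110812409), an AMP deaminase, had 10.3, 9.96 and 9.87 CPM in KO libraries, against 3.99, 4.61 and 4.63 CPM in WT libraries, with no overlap. It rose 2.26-fold (log2 fold change 1.18 ± 0.10, adjusted p = 7.91e-08). Cd81 (chr7:143052750-143067930), a tetraspanin membrane protein, had 0.957, 0.966 and 1.15 CPM in KO libraries, against 0.295, 0.335 and 0.727 CPM in WT libraries. Its rise of 2.23-fold (log2 fold change 1.16 ± 0.36, adjusted p = 0.0112) was no longer called without WT replicate 1 (adjusted p = 0.0503) or without WT replicate 2 (adjusted p = 0.0533).

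Smaller differences were called for 4 members. The membrane proteolipid gene Nnat (7.46 ± 0.106 CPM in KO against 5.57 ± 0.644 CPM in WT libraries) and Impact (30.8 ± 0.338 against 25.7 ± 1.62 CPM), a regulator of translation under stress, were higher in KO cells. Gnas, the stimulatory G protein alpha subunit (873 ± 25.7 CPM in KO against 976 ± 44.2 CPM in WT libraries), and the phosphoinositide phosphatase Inpp5f (31.5 ± 2.23 against 41.3 ± 2.50 CPM) were lower. Beside Cdkn1c, the members not called were the histone chaperone Nap1l4, the actin-binding protein Ppp1r9a, the ubiquitin ligase Ube3a and Commd1, a copper-handling factor. Their log2 fold changes lay between -0.10 and 0.11, with adjusted p-values of 0.0505 to 0.934.

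**Figure D1:**
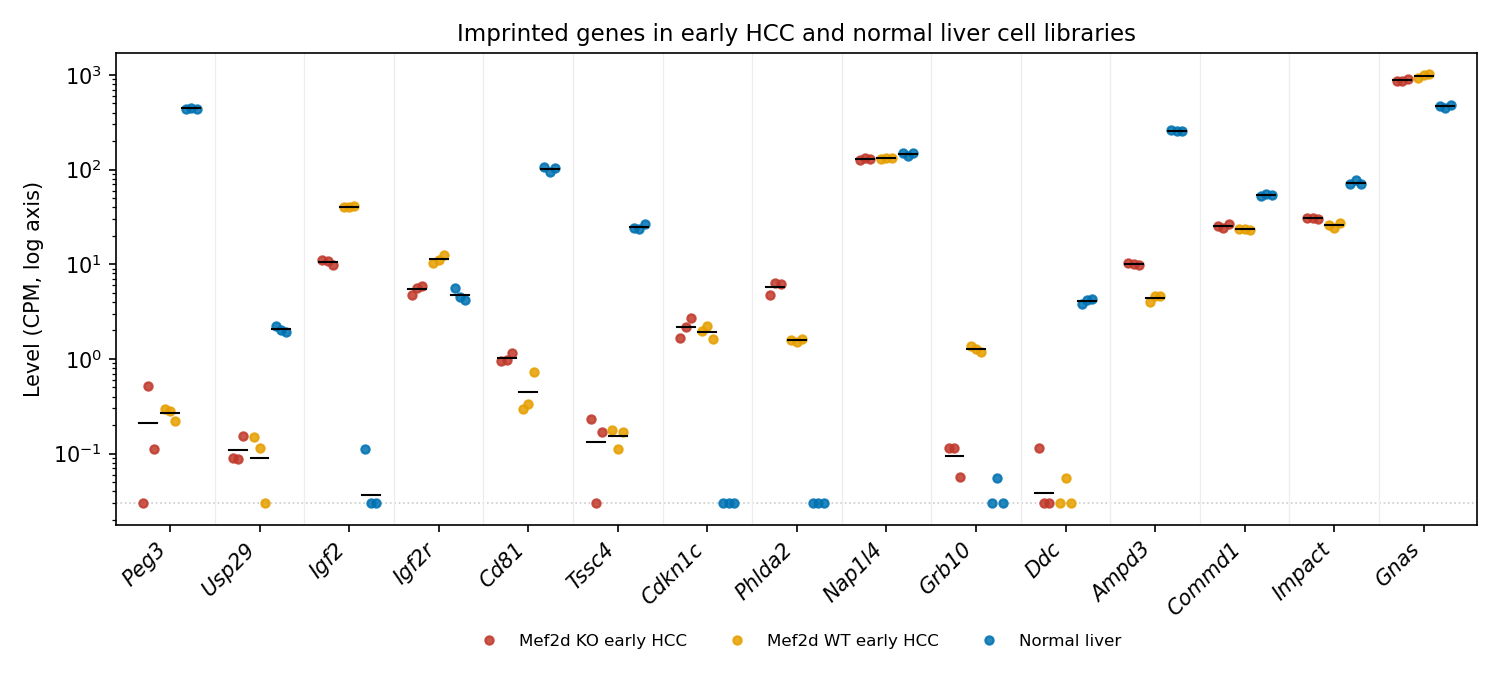
Level of 15 imprinted genes in each early HCC and normal liver library (CPM, log axis), with Mef2d KO in red, WT in orange and normal liver in blue; black lines are group means (n = 3), and values of 0 or under 0.03 CPM are drawn on the dotted line at 0.03. The 3 normal liver libraries of Peg3, Cd81, Tssc4 and Ampd3 lie far above all early HCC libraries, and those of Igf2, Cdkn1c and Phlda2 lie at or near the dotted line.

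A second table paired the WT early HCC libraries with normal liver cells, so this comparison shares its WT libraries with the first. The members fell into a lower group led by Peg3, Cd81, Tssc4, Ddc and Ampd3 and a higher group led by Igf2, Cdkn1c, Phlda2 and Grb10, many of them by factors far above 2. Of 20 tested members 18 were called, 8 higher and 10 lower, and 8 others with a row were too low to test. This again is near the background, since 87.2% of 12697 genes tested were called (43.9% higher and 43.3% lower). At 2-fold or more, 15 members were called, 6 higher and 9 lower, against 41% of all genes (20.3% higher and 20.7% lower). Relative to the median of the gene's own chromosome, log2 fold changes were 0.88 for Igf2r, 0.89 for Gnas, -0.9 for Commd1 and -0.92 for Impact. These were then under 2-fold, and the others stayed above it. The part of chromosome-wide shifts in these results was not tested. The median absolute log2 fold change was 3.12 over the tested members and 0.789 over all genes tested, with signed medians of -0.07 and 0.01. Tables list no gene without a count in early HCC cells, so a gene transcribed in normal liver alone could not appear.

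Peg3 (chr7:6703892-6730462), a paternally expressed zinc-finger gene known for effects on growth and maternal behaviour, was lower in early HCC cells. It had 0.295, 0.279 and 0.223 CPM in WT early HCC libraries, against 439, 449 and 441 CPM in normal liver libraries. In counts, 14 reads in the 3 WT libraries stood against 24113.6 in the normal liver libraries, a fall of 1610-fold (log2 fold change -10.65 ± 0.09, adjusted p = 8.20e-22). KO early HCC libraries, not tested against normal liver, had 0, 0.517 and 0.113 CPM. Usp29, a ubiquitin-specific protease gene that starts 164 bases away on the opposite strand, had 0.150, 0.116 and 0.00391 CPM in WT libraries, against 2.25, 2.04 and 1.92 CPM in normal liver libraries. It fell 20.3-fold (log2 fold change -4.34 ± 0.44, adjusted p = 8.15e-08), and by -5.03 on the log2 scale without WT replicate 1. Of 4 tested neighbours within 250000 bases, 2 were higher and 2 were lower, the last by less than 2-fold. Among all genes tested, 43.9% were called higher and 43.3% lower. The promoter window of Peg3 is printed because the Peg3 and Usp29 windows share 263 bases. It covers the 250 bases before and 50 after the annotated start in RefSeq (chr7:6730370-6730669, GRCm38.p6, minus strand), and capitals mark its 13 CpG dinucleotides, the sites that imprinting methylates.
Peg3: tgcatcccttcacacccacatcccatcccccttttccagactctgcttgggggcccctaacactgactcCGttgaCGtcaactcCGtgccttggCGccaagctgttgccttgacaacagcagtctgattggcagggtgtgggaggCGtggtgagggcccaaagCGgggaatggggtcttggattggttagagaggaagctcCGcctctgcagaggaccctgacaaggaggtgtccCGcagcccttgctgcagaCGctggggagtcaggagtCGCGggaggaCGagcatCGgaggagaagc

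Igf2 went the opposite way to Peg3. It had 39.9, 40.7 and 41.4 CPM in WT early HCC libraries, against 0.111, 0 and 0 CPM in normal liver libraries. The normal liver value rests on 2 counts, and the ratio of counts was 1110 with a 95% counting interval of 306 to 9160 (adjusted p = 3.44e-17). Of the 6 tested neighbours of Igf2 and H19, 5 were also higher, 4 of them by at least 2-fold, including Syt8 (16.6 ± 1.83 against 0.816 ± 0.218 CPM). The share over all genes tested was 43.9% called higher and 20.3% by at least 2-fold. Igf2r had 10.3, 11.1 and 12.4 CPM in WT libraries, against 5.59, 4.52 and 4.21 CPM in normal liver libraries, a rise of 2.38-fold (log2 fold change 1.25 ± 0.12, adjusted p = 5.10e-08). Ligand and receptor transcripts were thus both higher in WT early HCC than in normal liver cells, and both lower in KO than in WT early HCC cells. KO cells were not tested against normal liver: Igf2r averaged 5.43 ± 0.582 CPM in KO and 4.78 CPM in normal liver libraries, and Igf2 averaged 10.5 ± 0.655 CPM in KO libraries against the 2 counts of normal liver.

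Cdkn1c, Phlda2 and Grb10 were detected in WT early HCC cells and had at most 1 count over the normal liver libraries. Cdkn1c (chr7:143458339-143461059) had 1.95, 2.23 and 1.62 CPM in WT libraries and no count in any normal liver library, so it was at least 35.1-fold higher with normal liver set at 3 counts over the group (adjusted p = 3.49e-08). Phlda2 had 1.59, 1.51 and 1.62 CPM in WT libraries and again no count in normal liver libraries, at least 28.6-fold higher (adjusted p = 6.86e-08). Grb10 had 1.36, 1.28 and 1.17 CPM in WT libraries, against 0, 0.0551 and 0 CPM in normal liver libraries. Its normal liver value is 1 count, and the ratio of counts was 69.2 with a 95% interval of 12 to 2770 (adjusted p = 1.92e-07). All 3 levels in WT cells were low, and in KO cells Cdkn1c stayed in this range while Phlda2 was higher and Grb10 lower.

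On distal chromosome 7, 2 members on the Ascl2 side of the Kcnq1ot1 cluster moved against Cdkn1c and Phlda2. Cd81 had 0.295, 0.335 and 0.727 CPM in WT early HCC libraries, against 106, 95.3 and 104 CPM in normal liver libraries, a fall of 218-fold (log2 fold change -7.77 ± 0.12, adjusted p = 1.11e-18). Tssc4 (chr7:143068416-143071093), a splicing-complex assembly factor in human cells, had 0.177, 0.112 and 0.168 CPM in WT libraries, against 24.3, 23.4 and 26.7 CPM in normal liver libraries, a fall of 155-fold (log2 fold change -7.28 ± 0.18, adjusted p = 3.74e-16). WT values of Tssc4 were at or below the floor. Nap1l4, at the far side of the cluster, averaged 132 ± 1.74 CPM in WT and 145 ± 5.93 CPM in normal liver libraries. Its small fall (log2 fold change -0.12 ± 0.04, adjusted p = 0.0134) was no longer called without WT replicate 1 (adjusted p = 0.0531). Kcnq1, Slc22a18 and Ascl2 were at or under 0.210 CPM on average in both groups and were not tested. Of 7 tested neighbours that are no members, 6 were lower and none higher at an adjusted p under 0.05, and 3 fell by at least 2-fold. Among all genes tested, 43.3% were called lower and 20.7% by at least 2-fold. Tnfrsf23, a decoy receptor gene, stood at 8.89 ± 0.655 CPM in WT against 171 ± 2.84 CPM in normal liver libraries. The promoter windows of the 2 fallen members and of Phlda2 are shown because genes of 1 cluster moved in opposite directions. Cd81 lies at chr7:143052500-143052799 and Tssc4 at chr7:143069118-143069417, both on the plus strand with 23 CpG each, and Phlda2 at chr7:143502475-143502774 on the minus strand with 26 CpG, in capitals as above.
Cd81: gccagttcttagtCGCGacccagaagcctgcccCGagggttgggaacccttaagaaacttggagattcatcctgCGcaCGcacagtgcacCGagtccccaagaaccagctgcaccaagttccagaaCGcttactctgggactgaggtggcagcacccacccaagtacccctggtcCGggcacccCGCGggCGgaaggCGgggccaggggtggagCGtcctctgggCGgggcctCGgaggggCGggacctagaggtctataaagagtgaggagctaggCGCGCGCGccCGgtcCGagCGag
Tssc4: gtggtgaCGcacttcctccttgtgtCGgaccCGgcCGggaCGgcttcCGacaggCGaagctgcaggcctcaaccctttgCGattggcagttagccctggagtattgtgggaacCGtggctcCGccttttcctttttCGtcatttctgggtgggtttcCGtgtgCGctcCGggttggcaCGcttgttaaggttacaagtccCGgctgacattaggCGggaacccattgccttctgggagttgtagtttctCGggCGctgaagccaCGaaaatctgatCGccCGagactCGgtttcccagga
Phlda2: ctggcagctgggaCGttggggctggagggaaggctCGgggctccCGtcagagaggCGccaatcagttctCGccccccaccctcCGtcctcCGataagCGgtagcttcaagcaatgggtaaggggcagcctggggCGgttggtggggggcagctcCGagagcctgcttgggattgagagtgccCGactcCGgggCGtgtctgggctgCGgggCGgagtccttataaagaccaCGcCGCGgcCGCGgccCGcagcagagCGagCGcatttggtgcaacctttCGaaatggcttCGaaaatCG

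**Figure D2:**
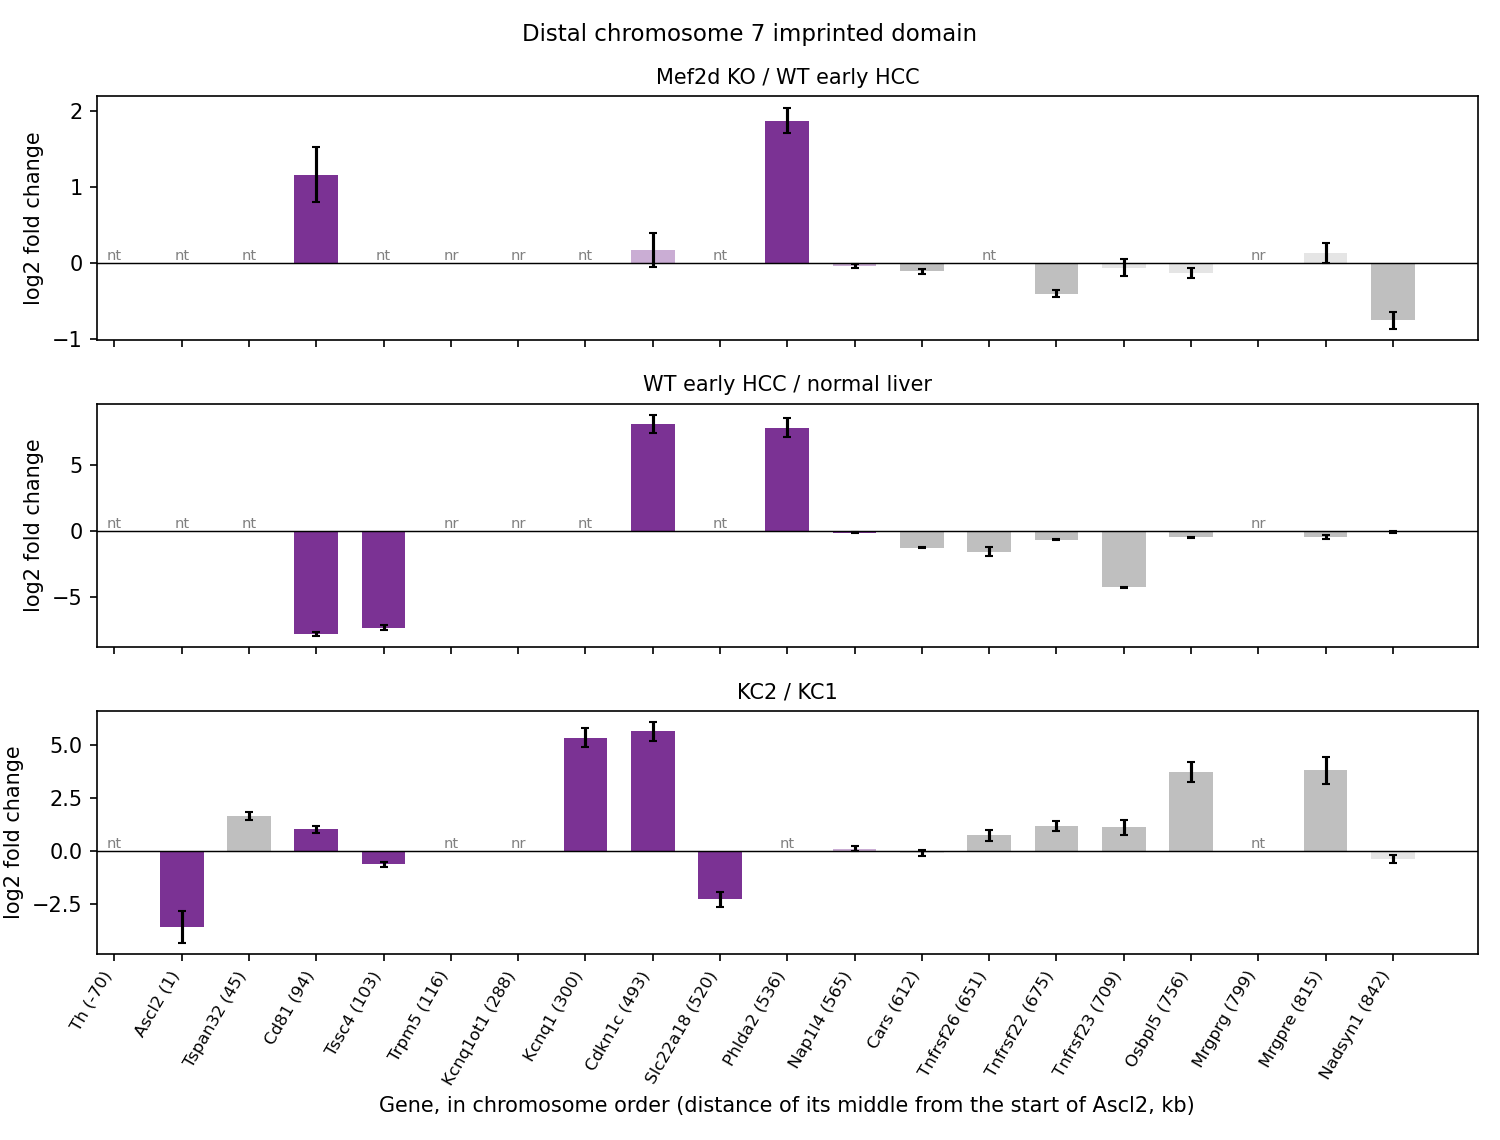
Log2 fold changes (bars, with SE) of genes across the distal chromosome 7 cluster, ordered by distance in kb from the start of Ascl2, for KO over WT early HCC, WT early HCC over normal liver and KC2 over KC1; purple bars are members, grey bars neighbours, pale bars were not called, nt is not tested and nr is no row. Cd81 and Tssc4 are down and Cdkn1c and Phlda2 up in WT early HCC over normal liver, where the bars of Cdkn1c and Phlda2 are fitted against 0 counts and are no bound.

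Other clusters also held members that were lower in early HCC cells. Ampd3 had 3.99, 4.61 and 4.63 CPM in WT libraries, against 263, 253 and 257 CPM in normal liver libraries, a fall of 57.8-fold (log2 fold change -5.85 ± 0.06, adjusted p = 7.01e-21). Ddc, the decarboxylase of serotonin and dopamine synthesis, lies beside Grb10 and moved against it. It had 0, 0.0558 and 0 CPM in WT libraries, against 3.82, 4.19 and 4.27 CPM in normal liver libraries. From 1 count in WT libraries, normal liver was higher by a ratio of counts of 216 with a 95% interval of 38.4 to 8570 (adjusted p = 7.68e-11).

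Impact had 25.8, 24 and 27.2 CPM in WT libraries, against 70.8, 77.5 and 69.8 CPM in normal liver libraries, a fall of 2.81-fold (log2 fold change -1.49 ± 0.06, adjusted p = 2.87e-13). Commd1 had 23.3, 23.5 and 23.1 CPM in WT libraries, against 53.1, 55.6 and 53.6 CPM in normal liver libraries, a fall of 2.30-fold (log2 fold change -1.20 ± 0.05, adjusted p = 8.53e-13). Zrsr1, a splicing factor gene that lies inside Commd1, fell as well. It had 0.177, 0.167 and 0.223 CPM in WT libraries, against 0.609, 0.826 and 0.763 CPM in normal liver libraries (log2 fold change -1.90 ± 0.43, adjusted p = 0.000632).

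Gnas had 928, 986 and 1010 CPM in WT libraries, against 470, 442 and 478 CPM in normal liver libraries, a rise of 2.13-fold (log2 fold change 1.09 ± 0.04, adjusted p = 8.39e-14). All 6 tested neighbours of Gnas were higher as well, 4 of them by at least 2-fold. Among all genes tested, 43.9% were called higher and 20.3% by at least 2-fold. Nnat (5.57 ± 0.644 CPM in WT against 2.88 CPM in normal liver libraries, 1.95-fold) and Inpp5f (41.3 ± 2.50 against 31.1 CPM, 1.34-fold) rose by less than 2-fold. Ppp1r9a (adjusted p = 0.0758) and Ube3a (adjusted p = 0.736) were not called. The untested members, among them the hydrolase gene Mest, the placental gene Rtl1, the ubiquitin ligase adaptor Asb4 and the sarcoglycan gene Sgce, averaged 0.586 CPM or less in both groups. Of these, Asb4 alone was called without the low-count filter, at 0.0777 CPM in WT against 0.586 CPM in normal liver libraries (adjusted p = 0.00132).

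**Figure D3:**
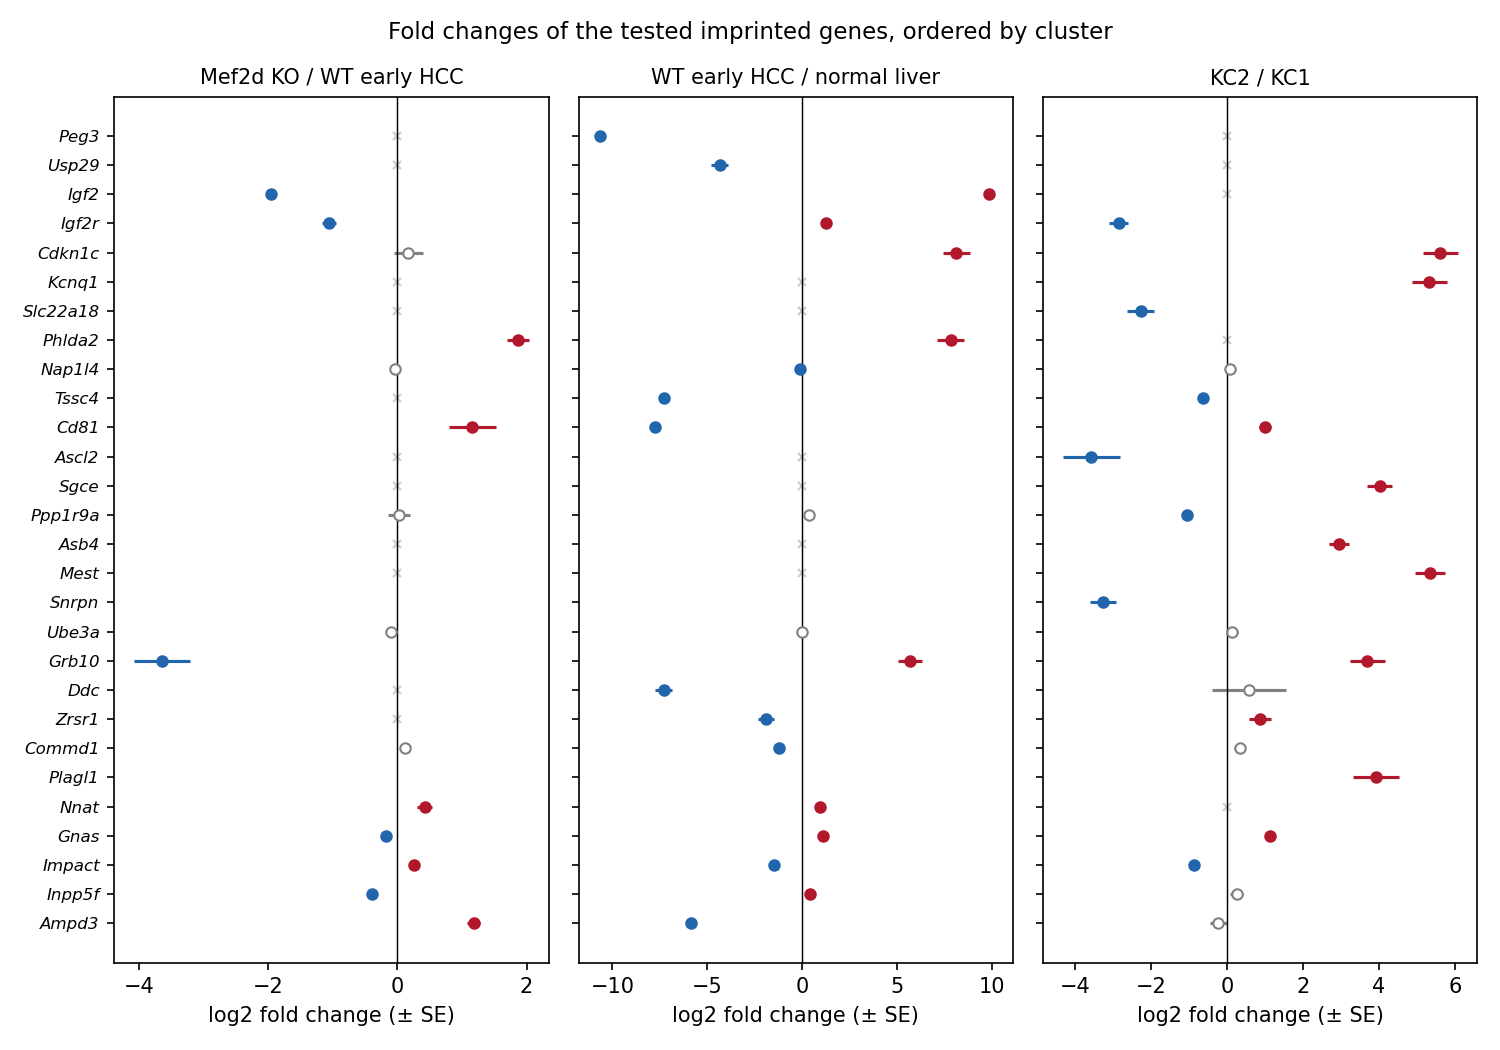
Log2 fold change with SE of every member tested in at least 1 comparison, ordered by cluster; filled red points were called higher, filled blue points lower, open points were not called and grey crosses at 0 had a row but were too low to test. Igf2, Igf2r and Grb10 lie left of 0 for KO over WT and right of 0 for WT early HCC over normal liver; points fitted against groups of 3 counts or fewer, such as Igf2 and Cdkn1c in the middle panel, are no bounds.

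The third comparison was between the Kupffer cell groups KC2 and KC1. Mest, Kcnq1, Cdkn1c, Sgce, Plagl1, Grb10 and Asb4 were higher in KC2 libraries by factors of 7.72 to 49.2, while Ascl2, Snrpn, Igf2r and Slc22a18 were lower by factors of 4.86 to 12. Of 23 tested members 17 were called, 10 higher and 7 lower, and 11 others with a row were too low to test. Over all 12774 genes tested, 59.8% were called (31.9% higher and 27.9% lower). At 2-fold or more there were 13 members, 8 higher and 5 lower, against 36.7% of all genes (22.1% higher and 14.6% lower). The median log2 fold change of tested members was 0.33, against 0.03 over all genes, and the median absolute value was 1.13 against 0.741.

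Markers of other cell types moved with the same grouping. The summed level of 10 endothelial markers was 14400, 10100, 9490 and 10100 CPM in KC2 libraries, against 421, 529, 407 and 432 CPM in KC1 libraries, and 9 of the 10 were called higher. Summed over 8 Kupffer cell markers, the level was 1440, 8900, 9300 and 10400 CPM in KC2 libraries, against 22100, 31200, 25700 and 24400 CPM in KC1 libraries, with 4 called lower and none higher. None of these 18 markers was at 0 in any Kupffer cell library. Lymphocyte markers summed to 124 to 605 CPM in KC2 against 5.08 to 6.99 CPM in KC1 libraries, where 1 to 2 of the 6 were at 0, and neutrophil markers to 451 to 3900 against 48.7 to 186 CPM. Bile duct markers summed to 160 to 790 CPM in KC2 against 7.30 to 16.5 CPM in KC1 libraries, with 5 of 5 tested called higher, and hepatocyte markers to 152 to 226 against 48.5 to 86 CPM, with 4 of 8 called higher. Of 6 bile duct markers, 2 to 4 were at 0 in each KC1 library and at most 1 in a KC2 library. The part of these markers in the results below was not tested. KC2 replicate 1 stood apart by its low Kupffer cell markers. Without it, all 17 called members kept their direction and their call, and Commd1 was called as well (log2 fold change 0.39, adjusted p = 0.0402). The log2 fold changes were then 3.89 for Sgce, 3.81 for Plagl1, 3.63 for Grb10, 2.93 for Asb4, 1.09 for Gnas, 1.01 for Cd81 and 0.81 for Zrsr1 among the higher members. Among the lower ones they were -3.29 for Ascl2, -2.12 for Slc22a18, -1.05 for Ppp1r9a, -0.825 for Impact and -0.64 for Tssc4, and those of Mest, Cdkn1c, Kcnq1, Igf2r and Snrpn stand beside their values below.

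**Figure D4:**
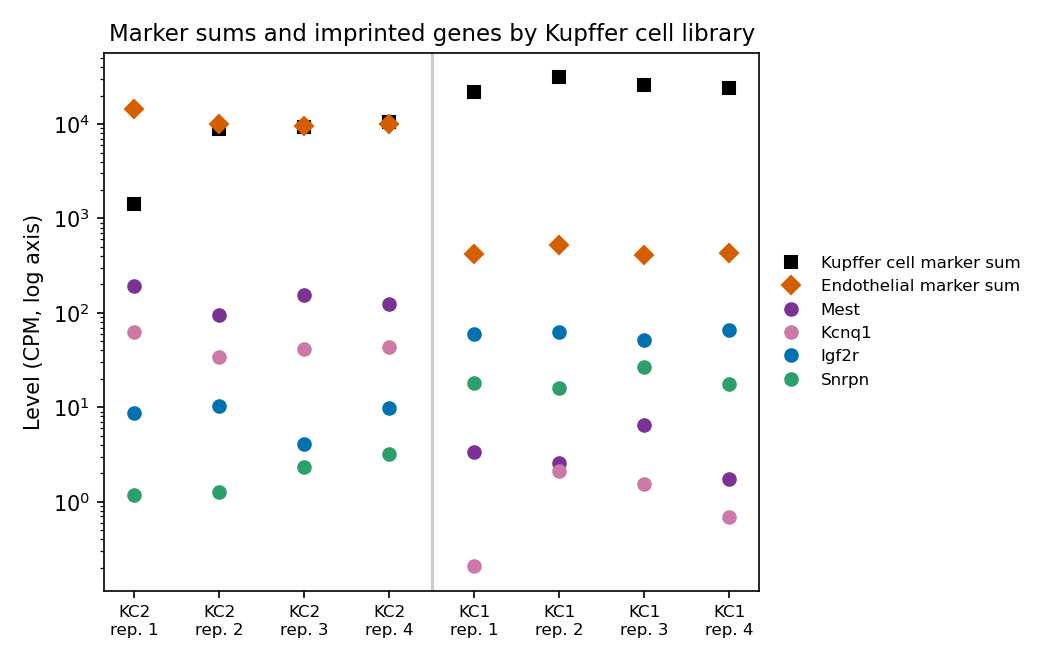
Summed marker levels (black squares, Kupffer cell markers; orange diamonds, endothelial markers) and levels of 4 members (circles) in each Kupffer cell library, in CPM on a log axis. Mest and Kcnq1 are higher and Igf2r and Snrpn lower in all 4 KC2 libraries, the endothelial sum is also higher in all 4, and the Kupffer cell sum is lowest in KC2 replicate 1.

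Members known mainly as paternally expressed moved in both directions, and Snrpn and Impact, given below, were lower. The higher ones were led by Mest (chr6:30733506-30748466), which encodes a hydrolase-like membrane protein. It had 195, 94.6, 153 and 123 CPM in KC2 libraries, against 3.33, 2.56, 6.42 and 1.72 CPM in KC1 libraries. That was a rise of 40.6-fold (log2 fold change 5.35 ± 0.39, adjusted p = 1.56e-06, and 5.15 without KC2 replicate 1). Of 7 neighbours with a row, 3 were tested and none of these was called, against 59.8% of all genes tested. Plagl1, a zinc-finger transcription factor known to regulate other imprinted genes, had 5.71, 3.21, 2.60 and 7.20 CPM in KC2 libraries, against 0.346, 0.594, 0.203 and 0.0695 CPM in KC1 libraries. It rose 15.2-fold (log2 fold change 3.93 ± 0.60, adjusted p = 0.000235). Sgce, a sarcoglycan gene, had 38.9, 28.6, 27.4 and 27.7 CPM in KC2 libraries, against 1.04, 3.10, 2.30 and 1.11 CPM in KC1 libraries, a rise of 16.3-fold (log2 fold change 4.03 ± 0.33, adjusted p = 3.50e-06). Peg10, which starts beside Sgce, had 1 count in KC2 and 17 in KC1 libraries and was too low for the filter (adjusted p = 0.0453 without it, lower in KC2). The Mest window that starts the shorter transcripts (chr6:30737800-30738099, plus strand) is printed because Mest was called and none of its tested neighbours was. Capitals mark its 17 CpG dinucleotides, and the window holds the core TGCCGC, recognised by the imprint-protecting factor ZFP57, at 2 places when both strands are read.
Mest: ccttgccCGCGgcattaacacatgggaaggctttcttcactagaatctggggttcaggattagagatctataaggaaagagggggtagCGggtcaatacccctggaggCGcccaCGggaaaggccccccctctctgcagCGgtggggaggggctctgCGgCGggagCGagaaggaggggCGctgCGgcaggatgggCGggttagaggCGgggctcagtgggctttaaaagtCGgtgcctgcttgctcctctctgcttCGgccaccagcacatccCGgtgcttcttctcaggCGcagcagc

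Members known mainly as maternally expressed also moved in both directions. Cdkn1c had 7.25, 7.01, 9 and 4.6 CPM in KC2 libraries, against 0.0692, 0.198, 0.203 and 0.0695 CPM in KC1 libraries, a rise of 49.2-fold (log2 fold change 5.62 ± 0.46, adjusted p = 3.29e-06; 5.60 without KC2 replicate 1). Kcnq1 (chr7:143106877-143427050), a voltage-gated potassium channel, had 63.5, 34.2, 41.8 and 43.6 CPM in KC2 libraries, against 0.208, 2.11, 1.55 and 0.695 CPM in KC1 libraries, a rise of 40.1-fold (log2 fold change 5.33 ± 0.46, adjusted p = 4.92e-06; 5.12 without KC2 replicate 1). Its non-coding antisense partner Kcnq1ot1 lies within the gene, and the tables do not say whether counting used strand, so the 2 cannot be told apart. Grb10 had 25.1, 27.9, 19.8 and 15.1 CPM in KC2 libraries, against 2.49, 0.330, 2.43 and 1.60 CPM in KC1 libraries, a rise of 13-fold (log2 fold change 3.70 ± 0.45, adjusted p = 5.45e-05). Asb4 had 20.3, 15.7, 18.4 and 23.6 CPM in KC2 libraries, against 1.87, 2.24, 3.92 and 2.16 CPM in KC1 libraries, a rise of 7.72-fold (log2 fold change 2.95 ± 0.27, adjusted p = 6.55e-06). No library of KC2 overlapped one of KC1 for these 4 genes.

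Gnas and Cd81 rose less. Gnas had 246, 209, 221 and 227 CPM in KC2 libraries, against 111, 87.8, 110 and 108 CPM in KC1 libraries, a rise of 2.19-fold (log2 fold change 1.13 ± 0.13, adjusted p = 2.58e-05). Cd81 had 1500, 1580, 1570 and 1550 CPM in KC2 libraries, against 653, 901, 744 and 846 CPM in KC1 libraries, a rise of 2-fold (log2 fold change 1 ± 0.15, adjusted p = 0.000195). Zrsr1 averaged 5.31 ± 0.859 CPM in KC2 and 2.94 ± 0.718 CPM in KC1 libraries (adjusted p = 0.0222). Its call was lost without KC1 replicate 1, 2 or 3 (adjusted p = 0.0662, 0.0517 and 0.0598).

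Among the lower members, Igf2r had 8.69, 10.2, 4.09 and 9.93 CPM in KC2 libraries, against 60, 62.7, 52.1 and 66.2 CPM in KC1 libraries, a fall of 7.24-fold (log2 fold change -2.86 ± 0.26, adjusted p = 5.96e-06; -2.89 without KC2 replicate 1). Its antisense partner Airn overlaps its start, with the same limit as for Kcnq1. Snrpn, a splicing protein gene of the Prader-Willi region, had 1.19, 1.26, 2.32 and 3.24 CPM in KC2 libraries, against 18.1, 16.2, 26.6 and 17.7 CPM in KC1 libraries. It fell 9.66-fold (log2 fold change -3.27 ± 0.34, adjusted p = 1.71e-05; -3.08 without KC2 replicate 1), and Snurf, which shares its transcript, had a log2 fold change of -3.20 from the same reads. The ubiquitin ligase Ube3a from the same region did not differ beyond its spread (26.0 ± 4.01 CPM in KC2 against 24 ± 3.45 CPM in KC1 libraries, adjusted p = 0.504).

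Ascl2, a transcription factor of trophoblast and intestinal stem cells, had 0.149, 0.876, 0 and 0.605 CPM in KC2 libraries, against 6.85, 3.23, 5.54 and 4.10 CPM in KC1 libraries. It fell 12-fold (log2 fold change -3.58 ± 0.75, adjusted p = 0.00193; -4.28 without KC2 replicate 2). Slc22a18, an organic cation transporter, had 2.63, 1.81, 6.46 and 5.21 CPM in KC2 libraries, against 21.4, 21.6, 17.4 and 18.8 CPM in KC1 libraries, a fall of 4.86-fold (log2 fold change -2.28 ± 0.35, adjusted p = 0.000259). Both are members of the Kcnq1ot1 cluster, whose Kcnq1 and Cdkn1c rose. Ppp1r9a had 12.2, 13.5, 12.8 and 12.2 CPM in KC2 libraries, against 24.3, 28.0, 26.6 and 28.5 CPM in KC1 libraries, a fall of 2.09-fold (log2 fold change -1.06 ± 0.13, adjusted p = 5.69e-05). Impact (34.0 ± 4.24 CPM in KC2 against 63.1 ± 3.55 CPM in KC1 libraries) and Tssc4 (43.3 ± 4.20 against 67.7 ± 5.02 CPM) fell by less than 2-fold.

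**Figure D5:**
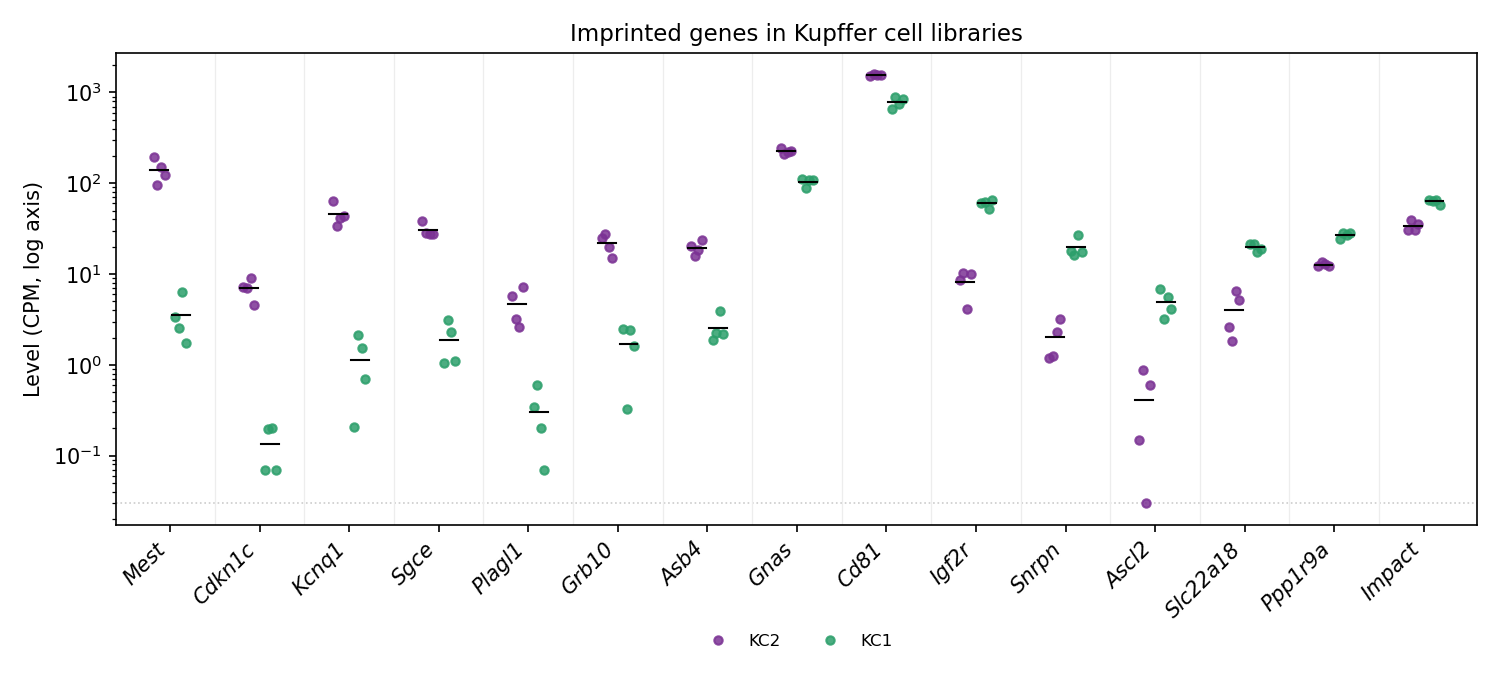
Level of 15 imprinted genes in each Kupffer cell library (CPM, log axis), with KC2 in purple and KC1 in green; black lines are group means (n = 4), and values of 0 or under 0.03 CPM are drawn on the dotted line at 0.03. From Mest to Cd81 all KC2 libraries lie above all KC1 libraries, and from Igf2r to Impact they lie below.

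Members not called in Kupffer cells were Nap1l4, Ube3a, Ddc, Commd1, Inpp5f and Ampd3, with log2 fold changes between -0.23 and 0.58. Peg3 and Igf2, which differed widely between WT early HCC and normal liver cells, were scarce in Kupffer cells and too low for the filter. Peg3 had 0.496, 0.818, 1.44 and 1.27 CPM in KC2 libraries, against 0.138, 0, 0.135 and 0 CPM in KC1 libraries. Igf2 had 1.99, 0.526, 1.33 and 2.36 CPM in KC2 libraries, against 0.208, 0.0660, 0.0676 and 0 CPM in KC1 libraries. Each KC2 library exceeded every KC1 library for both genes. Without the low-count filter, their log2 fold changes were 3.74 ± 1.05 for Peg3 (adjusted p = 0.0112) and 4.07 ± 0.914 for Igf2 (adjusted p = 0.00286). Dlk1, a Notch-related fetal liver protein, had 1 count over all 8 libraries, and Dio3, which inactivates thyroid hormone, had none.

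Counts by the parental copy each member is mainly known for, which was not measured in these cells, are small. They are given beside the shares over all genes tested. In KO against WT cells, 2 of 4 tested paternal members were higher and 2 lower, and of 11 maternal ones 3 were higher and 3 lower, against 32.3% higher and 32.2% lower over all genes. In WT early HCC against normal liver cells, 3 of 8 paternal members were higher and 5 lower, and of 12 maternal ones 5 were higher and 5 lower, against 43.9% and 43.3%. In KC2 against KC1 libraries, 4 of 8 paternal members were higher and 2 lower, and of 15 maternal ones 6 were higher and 5 lower, against 31.9% and 27.9%. No difference between the copies was tested.

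Promoter windows of 34 members, 53 in all, were used. Those of H19, Cdkn1c, Kcnq1, Nap1l4, Rtl1, Peg10, Sgce and Impact were not used here. Their median CpG count was 13 and their median GC content 57.3%, against 7 and 52.7% over all 32851 windows of the genome. The ZFP57 core TGCCGC, counted on both strands, was in 11 member windows (20.8%) and in 11.6% of all windows. Windows of the same gene can overlap, as do those of Mest from chr6:30737800 and chr6:30737803, so a match can be counted repeatedly. The core holds a CpG, and the shares were not adjusted for overlap or CpG count. A pattern like a MEF2 site but with any 4 bases between CTA and TAG was in 4 member windows, of Snrpn, Ampd3 and Grb10. It was in 3.69% of all windows. The MEF2 site has A or T at those 4 bases, and each of these matches held a G or C there, so none of the matches was a MEF2 core. Patterns with other bases at the ends were not searched, so the windows may hold other MEF2 sites. A YY1 core of the kind known from Peg3, GCCAT and TT parted by 1 base, was in 1 member window, of Ube3a, and in 6.05% of all windows. These are matches of letters in 300-base windows, not bound sites.

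Factors that set, protect or erase imprints were counted as a list of 24 genes. In KO against WT cells 4 of 18 tested were higher and 9 lower, where 64.5% of all genes were called, and the median log2 fold change was -0.12, against -0.003 over all genes. Lower in KO cells were the de novo methyltransferase Dnmt3a at 44.4 ± 0.635 against 86.6 ± 3.44 CPM, ZFP57's gene Zfp57 at 6.30 ± 0.223 against 10.8 ± 0.979 CPM and the maintenance methyltransferase Dnmt1 at 275 ± 3.77 against 450 ± 9.69 CPM. Tet2, listed as an eraser, was lower as well, at 45.1 ± 2.09 against 73.1 ± 2.99 CPM. In WT early HCC against normal liver cells 10 of 20 tested were higher and 7 lower, where 87.2% of all genes were called (median 0.09 against 0.01 over all genes). Zfp57 was lower there, at 10.8 ± 0.979 against 55 ± 1.06 CPM, as was Dnmt3b at 0.115 ± 0.0607 against 2.57 ± 0.484 CPM. The eraser Tet1 was also lower, at 0.420 ± 0.202 against 1.76 ± 0.0824 CPM. The histone methyltransferase Setdb1 was higher at 300 ± 3.76 against 89.6 ± 0.5 CPM. So was Dnmt3l, with 95 counts in WT and 0 in normal liver libraries, at least 32.7-fold higher. In KC2 against KC1 libraries 5 of 21 tested were higher and 10 lower, where 59.8% of all genes were called (median -0.17 against 0.03). Zfp57 had 375 counts in KC2 against 1 in KC1 libraries, a ratio of 307 with a 95% interval of 54.7 to 12100, and Dnmt3l had no count in KC2 against 62 in KC1 libraries, at least 25.3-fold lower.

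The IGF2 pathway was followed in 16 genes of its receptors, binding proteins and adaptors. In KO against WT cells 2 of 9 tested were higher and 2 lower, against the 64.5% called over all genes (median log2 fold change 0.00 against -0.003). The growth-signalling receptor Igf1r stood at 214 ± 3.86 against 81.2 ± 2.60 CPM, 2.63-fold higher. The insulin receptor Insr (69.3 ± 1.54 against 144 ± 2.46 CPM) and the adaptor Irs1 (38.8 ± 0.779 against 80.4 ± 1.11 CPM) were lower in KO cells. In WT early HCC against normal liver cells 3 of 11 tested were higher and 8 lower, against 87.2% called over all genes (median -1.69 against 0.01). Among the lower were the binding protein genes Igfbp7 (0.379 ± 0.0764 against 317 ± 20.8 CPM) and Igfbp4 (0.772 ± 0.273 against 299 ± 12.3 CPM). In KC2 against KC1 libraries 6 of 8 tested were higher and 1 lower, against 59.8% called over all genes (median 2.45 against 0.03), with Igf1r at 35.1 ± 9.03 against 0.666 ± 0.486 CPM, beside the endothelial markers given above.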

How the data were processed

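Poly(A)-selected RNA of 17 libraries was analysed. The authors deposited expected counts per gene in 3 tables, 1 per comparison. Per the submitters' processing notes, FastQC, HISAT and RSEM were used with build mm10, with no versions or roles. RSEM divides reads that fit several genes, so overlapping genes (Peg3 and Usp29, Kcnq1 and Kcnq1ot1, Igf2r and Airn, Zrsr1 and Commd1, Snrpn and Snurf) are uncertain as single genes. The library kit kept strand, per the labels' protocols, and whether counting used it is not given in the sources used here.

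Expected counts were rounded to whole numbers and tested in R 4.3.3 by edgeR 4.0.16, using its quasi-likelihood F test with TMM factors and filterByExpr, each comparison with its own libraries. P-values were adjusted by Benjamini-Hochberg over all genes tested, and a gene was called at an adjusted p under 0.05. Levels are CPM with TMM factors, set over the 9 early HCC and normal liver libraries and, separately, the 8 Kupffer cell libraries, so levels were not compared across these sets or between genes. SE is the absolute log2 fold change over the square root of F. A group with 0 counts was set at 3 counts over the group, and for groups of 1 to 3 counts the count ratio is printed with its 95% interval. Floors and intervals cover counting error only. WT values were identical in both early HCC tables, and no pair of replicates differed by less than sampling noise. Spreadsheet dates were restored to 25 gene symbols per table. Identifiers matched RefSeq (GRCm38.p6) for 99.7% of genes, which gave positions and promoter windows. Columns without a sample numbered 0. The scripts were tested on simulated data.

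The members and gene lists were chosen with earlier results of these data known. Every member could be named, those called at 2-fold or more with a value per library, and per list and comparison at most the 5 called genes with the largest change. Neighbours are genes within 250000 bases. The chromosome medians were added after the data were seen. Alternatives were RLE scaling, DESeq2 1.42.0, other low-count filters, a replicate block, 1 fit over 9 libraries, CPM without TMM factors and each library left out.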

Additional observations from a re-analysis of the deposited data

Results flagged for a closer look

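In 46 groups of 4 libraries with a tested member, 3 had a library that lay apart from the others by Dixon's criterion, which chance meets in about 1 of 20 groups. Sgce was 38.9 CPM in KC2 replicate 1, against 27.4 to 28.6 CPM in the other KC2 libraries. Ube3a was 20.0 CPM in KC2 replicate 2, against 27.4 to 28.5 CPM in the other KC2 libraries. Gnas was 87.8 CPM in KC1 replicate 2, against 108 to 111 CPM in the other KC1 libraries. The calls of Sgce and Gnas held without these libraries, and Ube3a was not called with or without its library.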

How the results depend on the processing

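Counts of called members ranged over all alternatives from 9 to 11 for KO against WT cells, 18 to 20 for WT early HCC against normal liver cells and 17 to 20 for KC2 against KC1 libraries. Counts over all genes ranged from 6990 to 7962, 10698 to 11890 and 7114 to 7956 in the same order. Leaving out 1 library at a time gave 7262 to 7707, 10927 to 11090 and 7114 to 7804 genes. Of 719 alternative log2 fold changes of single members, 6 lost their call and 5 gained one. None changed sign where the member was called in either fit, and sign changes of members called in neither fit were not counted. Those lost were Cd81 in KO against WT cells, Nap1l4 in WT early HCC against normal liver cells and Zrsr1 in KC2 against KC1 libraries, as given above. Those gained were Ube3a without WT replicate 3 (adjusted p = 0.00166), Ppp1r9a without WT replicate 3 against normal liver (adjusted p = 0.0207) and Commd1 without KC2 replicate 1 (adjusted p = 0.0402), and 2 under the replicate block. Log2 fold changes of groups near 0 counts moved by over 1.5-fold with 1 library: Ddc to -9.19 without WT replicate 2, Igf2 to 12.50 without normal liver replicate 1 and Grb10 to 7.51 without normal liver replicate 2. Of 152 CPM alternatives 14 moved by more than 1 SD.

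Correlations of deviations ranged from -0.17 to 0.194 for same-numbered libraries and from -0.148 to 0.184 for others, so no pairing by replicate number was seen. With so few libraries per group, these correlations cannot exclude a pairing. With the replicate block 11, 18 and 18 members were called and 7962, 10911 and 7287 genes, and Ube3a in KO against WT cells (adjusted p = 0.0299) and Commd1 in KC2 against KC1 libraries (adjusted p = 0.0428) were called as well. Depth limits members under about 0.2 CPM, where a difference was not detectable.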

Other observations

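A further list of 45 imprinted genes outside the 42 members also moved in both directions. In KO against WT early HCC cells 8 of 20 tested were higher and 7 lower, against 64.5% called over all genes (median log2 fold change -0.06 against -0.003), led by the chloride channel gene Ano1 at 66.2 ± 2.75 against 14.3 ± 1.23 CPM, while the receptor kinase gene Axl was at 163 ± 2.57 against 290 ± 4.11 CPM. In WT early HCC against normal liver cells 10 of 21 tested were higher and 10 lower, against 87.2% called over all genes (median 0.03 against 0.01). Casd1, next to Sgce, averaged 51.6 ± 1.70 CPM in WT libraries against 1 count in normal liver libraries, and Cobl, near Grb10, had 1 count in WT libraries against 44.8 ± 1.49 CPM in normal liver libraries. In KC2 against KC1 libraries 10 of 23 tested were higher and 4 lower, against 59.8% called over all genes (median 0.31 against 0.03), with the glutaminyl cyclase gene Qpct at 28.3 ± 11.4 against 0.184 ± 0.236 CPM, Osbpl5 at 14.9 ± 1.42 against 1.15 ± 1.09 CPM and Peg12 at 7.48 ± 2.60 against 0.744 ± 0.365 CPM. Endothelial markers moved with the last comparison, and their part in it was not tested.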
